A study of Mus musculus with 12 samples.

Results

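CC chemokines are small secreted proteins that bind G protein-coupled receptors and draw monocytes, T cells and other leukocytes towards the cells that release them. Counts of 10 CC chemokine genes (Ccl2, Ccl3, Ccl4, Ccl5, Ccl6, Ccl7, Ccl9, Ccl12, Ccl17, and Ccl22) were taken by gene symbol from the 43626 genes counted in RNA-Seq libraries of mouse BMDMs, which are primary macrophages grown from bone marrow. The libraries came from BMDMs given PBS, 3′SL, LPS, or LPS with 3′SL, with 3 libraries for each condition. LPS, the bacterial glycolipid sensed by TLR4, was used at 10 ng/mL, and 3′SL is a sialylated human milk trisaccharide, used at 100 μg/mL, with 6 hours of incubation. The labels call 3′SL "HMO", and the sample records also describe injections of 3′SL into mice, while the conditions compared here are those of cells in culture. Nothing in the labels says whether the 3 libraries of a condition came from separate mice or cultures, so the p-values measure the spread between libraries. The comparisons ask how LPS altered each chemokine mRNA and whether 3′SL altered its level with or without LPS.

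TLR4 signals through NF-κB, AP-1, and an interferon arm, and many chemokine genes of macrophages are targets of these factors. Ccl2, Ccl7, and Ccl12 are monocyte chemoattractants that act through CCR2. Ccl3, Ccl4, and Ccl5 are inflammatory chemokines that attract monocytes and T cells, Ccl6 and Ccl9 are rodent chemokines that act through CCR1, and Ccl17 and Ccl22 are ligands of CCR4, which is found on type 2 helper and regulatory T cells.

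Each of the 12 libraries held from 20411741 to 26851890 reads on genes. Residuals from the condition means split the libraries into 3 library sets, and a set is a run of consecutive running numbers in the labels that contains PBS, 3′SL, LPS, and LPS with 3′SL once each. The mean correlation of residuals was 0.60 within sets and −0.35 between sets. Both values follow in part from the construction, because the sets were made from the same residuals and these are centred within each condition. Summed macrophage markers (8 genes, Adgre1 and Csf1r among them) were 17640 to 20737 CPM with PBS and 19570 to 24209 CPM with 3′SL. They were 26010 to 29473 CPM with LPS and 24694 to 30044 CPM with LPS and 3′SL. Lyz2 held most of this sum, at 12953 ± 692 CPM with PBS and 15368 ± 321 CPM with LPS (SD, n = 3). Summed stromal markers (8 genes, collagens and Dcn among them) were 647 to 746 CPM in library set 1, 28.9 to 41.6 CPM in set 2, and 70.0 to 110 CPM in set 3. Summed neutrophil markers (8 genes, S100a8 and S100a9 among them) were 112 to 173 CPM in set 1, 211 to 354 CPM in set 2, and 243 to 786 CPM in set 3. Of the 5 T or NK cell markers, Cd3e had no reads in any library, and the sum stayed at or below 0.230 CPM, while the sum of 3 B cell markers stayed at or below 0.911 CPM. The part of these markers in the results was not tested, and values within each library set are given beside the pooled ones. In such bulk libraries, fewer producing cells and less mRNA per cell cannot be told apart.

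In the GENCODE M21 annotation of GRCm38, 8 of the 10 genes lie on chromosome 11 and 2 on chromosome 8. Ccl2 (82035571 to 82037453), Ccl7 (82045712 to 82047525), and Ccl12 (82101845 to 82103400) are on the plus strand of chromosome 11, with 8.26 kb between Ccl2 and Ccl7. The second group on chromosome 11 holds Ccl5 (83525778 to 83530518), Ccl9 (83572919 to 83578636), Ccl6 (83587882 to 83593087), and Ccl3 (83647844 to 83649355) on the minus strand and Ccl4 (83662584 to 83664683) on the plus strand. Ccl9 and Ccl6 are separated by 9.24 kb and Ccl3 and Ccl4 by 13.2 kb. Ccl22 (94745590 to 94751699) and Ccl17 (94810453 to 94812036) are on the plus strand of chromosome 8, 58.8 kb apart. No exon of the 10 genes overlapped an exon of another gene. Of the 50-nucleotide words of the transcripts, 1.97% of those of Ccl9 and none of those of the other 9 genes occurred in another gene.

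Promoter windows of RefSeq (GRCm38.p6), 250 bases before to 50 bases after the start, were matched for 6 of the 10 genes: Ccl3, Ccl6, Ccl9, Ccl12, Ccl17, and Ccl22. The bases upstream of the start are shown for 5 of them, because Ccl6 and Ccl9 are neighbours of which Ccl9 alone was called higher with LPS, Ccl3 and Ccl22 had the lowest and the highest estimate for LPS with 3′SL against LPS, and Ccl17 had no reads without LPS. Each runs 5′ to 3′ towards the gene, and capitals mark motif matches on either strand. The sequences stop before the start of the gene in both annotations, which leaves 250 bases for 4 genes and 156 for Ccl22, whereas motifs were searched in the whole windows.
Ccl6, chr11:83593088-83593337, minus strand: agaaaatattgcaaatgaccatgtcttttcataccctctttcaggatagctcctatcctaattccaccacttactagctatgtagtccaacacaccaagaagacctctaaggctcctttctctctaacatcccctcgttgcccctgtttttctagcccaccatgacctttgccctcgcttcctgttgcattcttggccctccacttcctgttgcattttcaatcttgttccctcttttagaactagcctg
Ccl9, chr11:83578637-83578886, minus strand: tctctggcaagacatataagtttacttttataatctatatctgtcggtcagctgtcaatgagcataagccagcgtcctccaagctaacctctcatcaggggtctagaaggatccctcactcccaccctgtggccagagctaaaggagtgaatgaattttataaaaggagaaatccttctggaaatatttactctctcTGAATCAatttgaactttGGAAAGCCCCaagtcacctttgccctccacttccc
Ccl3, chr11:83649379-83649628, minus strand: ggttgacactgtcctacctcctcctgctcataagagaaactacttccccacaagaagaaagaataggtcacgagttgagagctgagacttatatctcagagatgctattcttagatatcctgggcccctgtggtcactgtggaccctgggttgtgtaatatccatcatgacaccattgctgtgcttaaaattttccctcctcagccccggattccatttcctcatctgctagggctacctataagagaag
Ccl22, chr8:94745434-94745589, plus strand: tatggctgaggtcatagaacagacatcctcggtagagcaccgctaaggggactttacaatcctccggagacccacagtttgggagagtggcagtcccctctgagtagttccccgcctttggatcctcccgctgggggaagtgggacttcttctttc
Ccl17, chr8:94810203-94810452, plus strand: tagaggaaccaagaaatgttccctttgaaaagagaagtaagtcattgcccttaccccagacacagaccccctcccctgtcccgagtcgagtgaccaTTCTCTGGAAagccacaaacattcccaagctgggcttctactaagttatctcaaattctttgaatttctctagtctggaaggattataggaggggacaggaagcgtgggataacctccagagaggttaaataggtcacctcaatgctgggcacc
The motifs searched were the κB site, the interferon element ISRE (GAAANNGAAA), the AP-1 site (TGANTCA), the C/EBP site (TTGCNNAA), and a STAT6 site (TTCNNNNGAA). Ccl9 held a κB match (GGAAAGCCCC) from −35 to −26 and an AP-1 match (TGAATCA) from −53 to −47, counted from the RefSeq start. Ccl17 held a STAT6 match (TTCTCTGGAA) from −154 to −145. No match was found in the windows of Ccl3, Ccl6, Ccl12, and Ccl22. Of 32851 windows of the same length, 4.51% held a κB match, 3.44% an ISRE match, 7.81% an AP-1 match, 10.8% a C/EBP match, and 6.95% a STAT6 match, and no motif overlapped another in the 6 windows. These matches describe letters in the windows only.

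LPS raised 9 of the 10 CC chemokine mRNAs, and Ccl6 was the exception. Calls required a change of at least 1.5-fold and an adjusted p below 0.05 in edgeR's quasi-likelihood test. Of 14308 genes tested, 18.3% were called higher with LPS than with PBS, against 9 of the 10 chemokine genes, while 20.2% of genes were called lower and no chemokine gene. In the same 9 genes every LPS library lay above every PBS library, as was the case for 27.3% of all genes. The log2 fold changes of the 10 genes had a median of 5.26, which is the same with Ccl17 at its bound, and all genes tested had a median of −0.06. Scaling by total counts instead of TMM factors moved the median of all genes to −0.71 and the calls from 2613 higher and 2889 lower to 1535 higher and 6657 lower, with 9 of the chemokine genes called higher against 10.7% of genes. By the mean level with PBS, the genes fell into 3 classes. The 1 constitutive gene, with a mean of at least 10 CPM and not called, was Ccl6. Another 6 were induced from a mean of at least 10 CPM (Ccl2, Ccl3, Ccl4, Ccl7, Ccl9, and Ccl12). The last 3 were induced from a lower mean (Ccl5, Ccl17, and Ccl22). Ccl12 passed the cut narrowly, at a mean of 10.2 CPM, with 7.61, 3.75, and 19.4 CPM in sets 1, 2, and 3. For Ccl17, which had no reads with PBS, the change is given only as a bound. It passed the filter on low counts only through libraries with LPS, so its call and ordering follow in part from that filter. When at least 10 counts were asked of every library, which leaves Ccl17 out, 8 chemokine genes were called higher, against 2204 of 11388 genes.

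**Figure D1:**
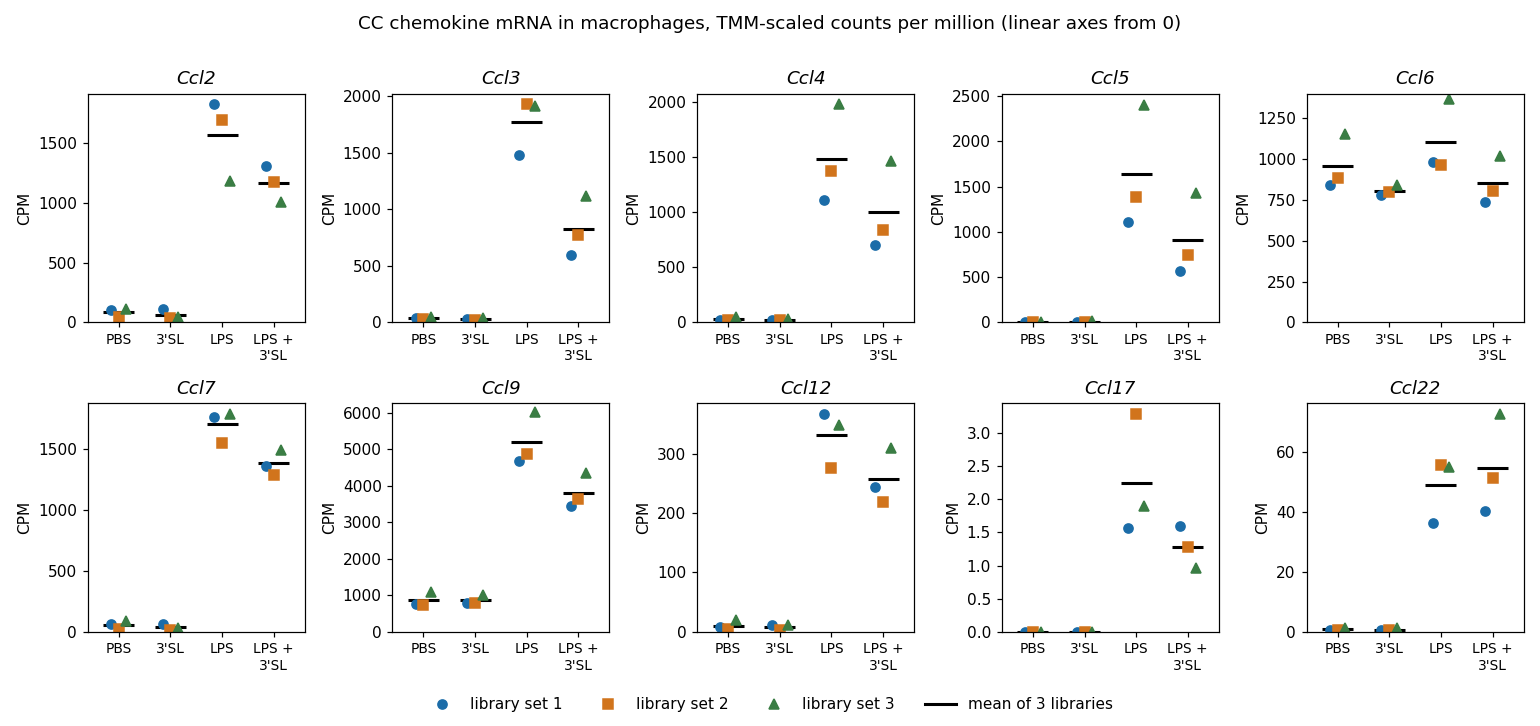
TMM-scaled CPM (vertical axes, linear from 0, a scale for each gene) of the 10 CC chemokine genes in the 4 conditions, with 1 point per library, marked by library set, and a line at the mean of 3 libraries. In 9 genes every LPS library lies above every PBS library, and for Ccl6 the PBS and LPS points overlap.

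Ccl6 was the most abundant of the 10 mRNAs in quiescent BMDMs. In library sets 1, 2, and 3 it was at 842, 884, and 1154 CPM with PBS and at 985, 962, and 1370 CPM with LPS. The 2 conditions overlapped, although the LPS library was the higher one within every set. The log2 fold change was 0.20 (SE 0.18, edgeR adjusted p = 0.403), with a 95% interval from −0.20 to 0.61, and it turned to −0.46 (edgeR adjusted p = 0.00499, under 1.5-fold) when libraries were scaled by total counts. Over all alternatives of this comparison, the adjusted p ranged from 0.000857 to 0.944 and Ccl6 was never called.

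Ccl9, the neighbour of Ccl6, stood at 763, 738, and 1088 CPM with PBS in sets 1, 2, and 3 and at 4683, 4866, and 6004 CPM with LPS. Its LPS libraries lay far above its PBS libraries, and the rise was the smallest among the 9 called genes, at 6.01-fold (log2 2.59, SE 0.21, edgeR adjusted p = 4.25e-06). Within sets the rise was 6.14-fold, 6.59-fold, and 5.52-fold. Both Ccl6 and Ccl9 were highest in set 3 with PBS and with LPS.

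The monocyte chemoattractants Ccl2, Ccl7, and Ccl12 were present at 3.75 to 117 CPM with PBS and spread widely between library sets. Ccl2, a main ligand of CCR2, was at 105, 46.6, and 117 CPM with PBS in sets 1, 2, and 3 and at 1825, 1697, and 1186 CPM with LPS. The increase was 17.5-fold (log2 4.13, SE 0.46, edgeR adjusted p = 3.96e-05), and it ranged from 10.1-fold in set 3 to 36.5-fold in set 2. Ccl7 was at 59.8, 22.5, and 91.2 CPM with PBS and at 1762, 1553, and 1790.3 CPM with LPS, an increase of 29.4-fold (log2 4.88, SE 0.57, edgeR adjusted p = 5.36e-05). Ccl12, found in rodents, was at 7.61, 3.75, and 19.4 CPM with PBS and at 368, 276, and 349 CPM with LPS, an increase of 32.3-fold (log2 5.01, SE 0.60, edgeR adjusted p = 6.35e-05). All 3 genes were lowest in set 2 and highest in set 3 with PBS, whereas with LPS set 3 was the lowest set for Ccl2 and the highest for Ccl7.

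Ccl3 and Ccl4, the macrophage inflammatory proteins 1α and 1β, rose in parallel from similar bases. Ccl3 was at 37.3, 32.8, and 48.0 CPM with PBS in sets 1, 2, and 3 and at 1485, 1928, and 1917 CPM with LPS, an increase of 45.1-fold (log2 5.50, SE 0.30, edgeR adjusted p = 5.01e-07). Ccl4 was at 25.7, 18.2, and 50.8 CPM with PBS and at 1113, 1374, and 1982 CPM with LPS, an increase of 47.2-fold (log2 5.56, SE 0.47, edgeR adjusted p = 5.60e-06). No library with LPS came near the PBS range of either gene. Within sets the increase of Ccl3 was 39.8-fold, 58.7-fold, and 40.0-fold, and that of Ccl4 was 43.3-fold, 75.5-fold, and 39.0-fold.

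Ccl5 (RANTES), Ccl22, and Ccl17 started from less than 10 CPM. Ccl5 was at 1.95, 4.21, and 8.47 CPM with PBS in sets 1, 2, and 3 and at 1112, 1387, and 2405 CPM with LPS. This was the largest fitted change among the 9 genes with reads in both conditions, 336-fold (log2 8.39, SE 0.81, edgeR adjusted p = 1.46e-05), and set 3 was the highest set in both conditions. Ccl22 was at 0.459, 0.491, and 1.38 CPM with PBS and at 36.3, 55.6, and 55.1 CPM with LPS, 63.0-fold higher (log2 5.98, SE 0.50, edgeR adjusted p = 5.27e-06). Ccl17 had no reads in any PBS or 3′SL library and 32, 68, and 31 reads in the LPS libraries of sets 1, 2, and 3. Against a floor of 3 counts over the PBS libraries, which covers counting error only, Ccl17 was at least 70.7-fold higher with LPS. Its adjusted p is not given, because Ccl17 passed the filter only through libraries with LPS. Summed markers of dendritic cells, which are known producers of Ccl17 and Ccl22, were 0.912 to 1.69 CPM with PBS and 6.10 to 15.7 CPM with LPS, and none of these 6 markers was at 0 in every library. With LPS most of this sum was Xcr1 (0.539 ± 0.306 CPM with PBS and 7.51 ± 4.47 CPM with LPS). Clec9a was at 0.0770 ± 0.109 and 0.900 ± 0.379 CPM, Zbtb46 at 0.462 ± 0.339 and 0.846 ± 0.428 CPM, and Ccr7 at 0.0675 ± 0.117 and 0.480 ± 0.381 CPM. Flt3 was at 0.148 ± 0.110 and 0.0735 ± 0.0649 CPM and Cd209a at 0.0608 ± 0.0577 and 0.0648 ± 0.0562 CPM (SD, n = 3). Of the 4 markers tested, edgeR called 2 higher (Xcr1 and Clec9a), against 18.3% of genes. Clec9a had 0 to 6 reads in PBS libraries, 0 to 3 in 3′SL libraries, and 11 to 21 in LPS libraries. Like Ccl17, it passed the filter only through libraries with LPS, so its call follows in part from that filter. The part of these cells in the result was not tested.

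**Figure D2:**
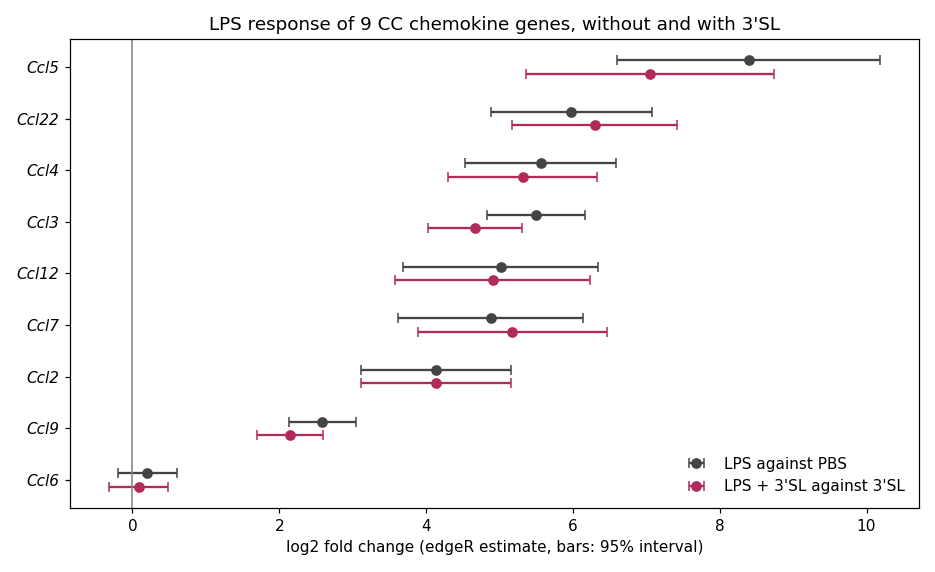
Log2 fold changes from edgeR (horizontal axis, points with 95% intervals) for 9 CC chemokine genes, LPS against PBS in grey and LPS with 3′SL against 3′SL in red, ordered by the first; Ccl17 is left out because it had no reads without LPS. Ccl6 straddles 0 in both comparisons, at 0.20 and 0.08, and Ccl5 is highest in both, at 8.39 and 7.05.

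The LPS response in the presence of 3′SL covered the same 9 genes. Of all genes tested, 14.3% were called higher in LPS with 3′SL than in 3′SL alone, against 9 of 10 chemokine genes. Among these 9, Ccl17 again passed the filter only through libraries with LPS. The smallest called change was that of Ccl9, 4.42-fold (log2 2.14, SE 0.20, edgeR adjusted p = 2.21e-05), and Ccl5 reached 132-fold (log2 7.05, SE 0.77, edgeR adjusted p = 5.26e-05). Ccl3 was 25.4-fold higher, Ccl4 39.8-fold, Ccl2 17.5-fold, Ccl7 36.2-fold, Ccl12 30.0-fold, and Ccl22 78.7-fold. Ccl17 had 33, 28, and 18 reads in sets 1, 2, and 3 and was at least 33.3-fold higher than in 3′SL alone. Ccl6 was again not called, with a log2 fold change of 0.08 (SE 0.18, edgeR adjusted p = 0.782) that turned to −0.41 with total counts (edgeR adjusted p = 0.0122, under 1.5-fold).

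Scaled to exon length, the order of the chemokine mRNAs changed with LPS. The length joined all annotated exons of a gene, 1795 bases for Ccl6 and 3045 for Ccl9. With PBS, Ccl6 stood first at 535 ± 94.1 CPM per kb (SD, n = 3), followed by Ccl9 at 283 ± 64.2. On this scale the libraries of these genes did not overlap with each other or with the next gene. Without length scaling, the PBS libraries of Ccl6 (842 to 1154 CPM) and Ccl9 (738 to 1088 CPM) overlapped. Ccl2 (78.6 ± 33.1 CPM per kb), Ccl7 (72.1 ± 42.9), Ccl3 (51.4 ± 10.1), Ccl4 (47.9 ± 25.9), Ccl12 (19.1 ± 15.1), and Ccl5 (5.08 ± 3.45) followed, each overlapping with its neighbour. Ccl22 (0.335 ± 0.225 CPM per kb) was below them, and Ccl17 was at 0. With LPS, Ccl3 was at 2319 ± 330.1 CPM per kb, Ccl4 at 2257 ± 675, Ccl7 at 2125 ± 162, Ccl5 at 1703 ± 709.7, Ccl9 at 1703 ± 235, and Ccl2 at 1379 ± 297, and each of these overlapped with its neighbour in the order. Ccl12 (617 ± 90.0 CPM per kb) and Ccl6 (616 ± 128) overlapped and stood below them, and Ccl22 (21.1 ± 4.72) and Ccl17 (4.38 ± 1.78) were lowest, apart from each other and from Ccl6. With LPS and 3′SL the first place went to Ccl7 (1724 ± 132 CPM per kb), and Ccl3 (1081 ± 346) moved below Ccl4 (1523 ± 614) and Ccl9 (1248 ± 155), although neighbours among the first 6 genes overlapped. In 3′SL alone the order was that of PBS.

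The 10 genes together held 0.257% ± 0.0486 of the reads on genes with PBS, 0.217% ± 0.00919 with 3′SL, 1.17% ± 0.0168 with LPS, and 0.859% ± 0.0229 with LPS and 3′SL (SD, n = 3). The LPS libraries ranged from 1.16% to 1.19% and the libraries with LPS and 3′SL from 0.845% to 0.886%, so the conditions did not overlap. On TMM-scaled library sizes the shares with LPS and with LPS and 3′SL were 1.48% and 1.03%, and the ranges of 1.34% to 1.71% and 0.900% to 1.22% did not overlap either. On this scale 6.5% of single genes had the same ordering of libraries, and the sum was not tested. Of the reads on the 10 genes, Ccl6 held 47.0% and Ccl9 41.9% with PBS, against 7.40% and 34.9% with LPS. Ccl3 held 12.0% ± 1.44 of these reads with LPS and 7.95% ± 1.25 with LPS and 3′SL, while Ccl7 held 11.6% ± 1.43 and 13.6% ± 1.47.

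**Figure D3:**
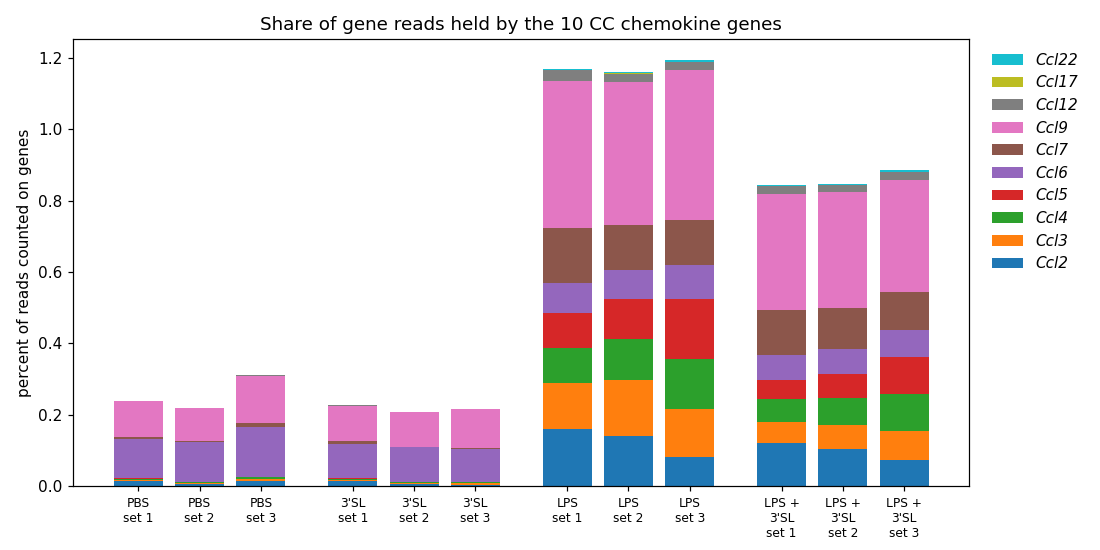
Percent of the reads counted on genes (vertical axis, from 0) held by the 10 CC chemokine genes in each of the 12 libraries, stacked by gene and grouped by condition and library set. The LPS bars reach 1.16% to 1.19%, those with LPS and 3′SL 0.845% to 0.886%, and those without LPS at most 0.312%.

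In LPS-treated BMDMs, 3′SL went with lower values of most CC chemokine mRNAs, but edgeR without a term for library set called no gene. With this fit, 0 of the 10 chemokine genes and 0% of all genes were called between LPS with 3′SL and LPS. At an unadjusted p under 0.05, 2 chemokine genes were lower (Ccl3 and Ccl9), of which 1 (Ccl3) reached 1.5-fold, against 1.31% of genes, and DESeq2 called Ccl3 alone lower, against 0.462% of genes. With a block for library set, edgeR called 2 chemokine genes lower (Ccl3 and Ccl5), against 0.762% of genes, and both calls were lost when set 1 or set 2 was left out. The estimate was below 0 for 9 of the 10 genes. The median of their log2 fold changes was −0.44, against −0.01 over all genes tested. Within every library set, 8 of the 10 genes were lower with 3′SL than without, as were 25.7% of all genes. For Ccl3, Ccl7, and Ccl9 every library with LPS and 3′SL was below every LPS library, as was the case for 6.5% of genes.

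Ccl3 was at 1485, 1928, and 1917 CPM with LPS in sets 1, 2, and 3, and at 597, 770.4, and 1117 CPM with LPS and 3′SL. The highest library with 3′SL was thus below the lowest without it, and the level was 40.2%, 40.0%, and 58.3% of LPS within the sets. The log2 fold change was −1.10 (SE 0.25, edgeR adjusted p = 0.196), −1.14 with the block for library set (SE 0.16, edgeR adjusted p = 0.00502), and −1.11 with DESeq2 (SE 0.27, adjusted p = 0.00734). Its unadjusted p was 0.00113 in edgeR without the block. Over all alternatives the estimate lay between −1.38 and −0.91 and the adjusted p between 0.000145 and 1.

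Ccl5 was at 1112, 1387, and 2405 CPM with LPS and at 564, 741, and 1424 CPM with LPS and 3′SL. The 2 conditions overlapped across sets, because set 3 was highest in both, while within sets the level was 50.7%, 53.4%, and 59.2% of LPS. The log2 fold change was −0.85 (SE 0.59, edgeR adjusted p = 0.957) and −0.89 with the block (SE 0.20, edgeR adjusted p = 0.0485), and the call with the block was lost when libraries were scaled by total counts (log2 −0.80, edgeR adjusted p = 0.0813), where 1 chemokine gene (Ccl3) was called lower against 0.566% of genes. Ccl4 ran from 1113 to 1982 CPM with LPS and from 706 to 1466 CPM with both, at 63.4%, 61.3%, and 74.0% of LPS within sets. Its log2 fold change was −0.57 (SE 0.38, edgeR adjusted p = 0.947), and it was not called with the block (edgeR adjusted p = 0.151).

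Ccl9 was at 4683, 4866, and 6004 CPM with LPS and at 3443, 3624, and 4333 CPM with LPS and 3′SL. The decrease was nearly the same in each set, to 73.5%, 74.5%, and 72.2% of LPS. Its log2 fold change was −0.45 (SE 0.20, edgeR adjusted p = 0.699), and with the block the edgeR adjusted p was 0.0142 at a change below 1.5-fold. Ccl6 was at 735, 805, and 1018 CPM with LPS and 3′SL, which was 74.7%, 83.7%, and 74.4% of its LPS level within sets, with a log2 fold change of −0.37 (SE 0.18, edgeR adjusted p = 0.780).

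Of the CCR2 ligands, Ccl2 was at 1306, 1172, and 1009.9 CPM with LPS and 3′SL, which was 71.6%, 69.1%, and 85.2% of LPS within sets. Ccl7 was at 1363, 1286, and 1495 CPM, below the lowest LPS library at 1553 CPM, and at 77.3%, 82.8%, and 83.5% of LPS within sets. Ccl12 was at 245, 219, and 309.9 CPM, at 66.6%, 79.2%, and 88.7% of LPS. Their log2 fold changes were −0.43, −0.30, and −0.36 in edgeR (SE 0.41, 0.49, and 0.51), all at an adjusted p of 1.

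The CCR4 ligands did not share 1 direction. Ccl22 was at 40.1, 51.4, and 72.7 CPM with LPS and 3′SL, which was 110%, 92.4%, and 132% of LPS within sets. Its estimate was the sole one above 0 among the 10 genes, at a log2 fold change of 0.16 (SE 0.38, edgeR adjusted p = 1) with a 95% interval from −0.68 to 1.003. Ccl17, with 33, 28, and 18 reads against 32, 68, and 31, had a log2 fold change of −0.81 (SE 0.45, edgeR adjusted p = 0.866), with no decrease in set 1. Summed dendritic cell markers were 7.26 to 17.5 CPM with LPS and 3′SL, which overlaps the range with LPS.

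**Figure D4:**
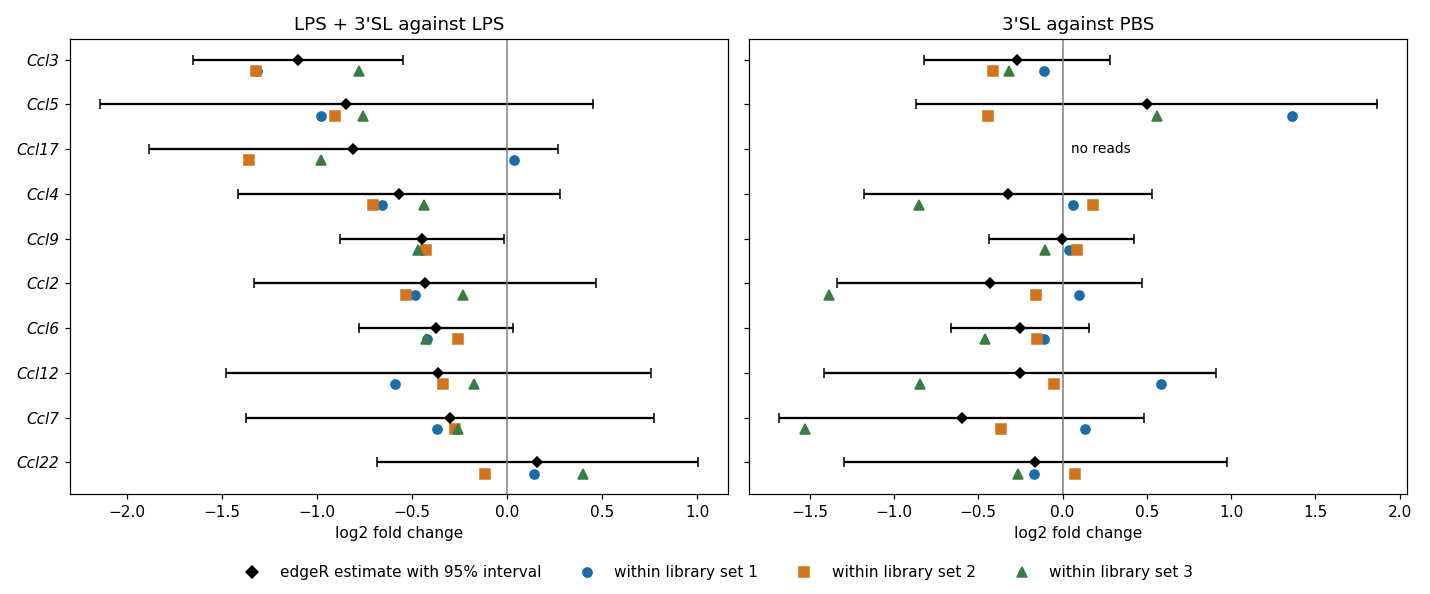
Log2 fold changes (horizontal axes) of the 10 CC chemokine genes for LPS with 3′SL against LPS (left) and 3′SL against PBS (right), as edgeR estimates with 95% intervals (black diamonds) and as ratios of 2 libraries within each library set (coloured points). On the left, the 3 points lie below 0 for 8 genes, between −1.32 and −0.78 for Ccl3, and on both sides of 0 for Ccl17 and Ccl22, while on the right the 3 points lie below 0 for Ccl3 and Ccl6.

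The calls made with the block rested on which library sets were in the fit. Without set 1 the block called 0 of the 10 chemokine genes lower with LPS and 3′SL than with LPS, against 0.00704% of genes, and without set 2 it called 0, against 0% of genes. The estimates kept their direction, at a log2 fold change of −1.07 without set 1 and −1.03 without set 2 for Ccl3 (edgeR adjusted p = 0.118 and 0.129) and −0.84 and −0.87 for Ccl5 (edgeR adjusted p = 0.416 and 0.253). Set 3 had the smallest difference for Ccl3, Ccl4, and Ccl5, so leaving it out gives larger estimates for these genes by construction. Without set 3 the block called 3 chemokine genes lower (Ccl3, Ccl4, and Ccl5), against 1.46% of genes, and edgeR with no block called 1 (Ccl3), against 0.535% of genes. The log2 fold changes with the block were then −1.31, −0.67, and −0.93. Summed neutrophil markers overlapped between LPS (171 to 786 CPM) and LPS with 3′SL (173 to 713 CPM), and so did stromal markers (41.6 to 745 CPM and 33.9 to 746 CPM).

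In quiescent BMDMs, no CC chemokine mRNA was called between 3′SL and PBS. With edgeR 0 of the 10 genes and 0% of all genes were called in either direction. The count of chemokine genes was also 0 at an unadjusted p under 0.05 with 1.5-fold (4.33% of genes), with DESeq2 (0.617% of genes), and with the block for library set (2.84% of genes). Ccl6 was at 780.3, 796, and 840.2 CPM with 3′SL in sets 1, 2, and 3, just under its lowest PBS library at 842 CPM, an ordering shared by 8.53% of genes. Its log2 fold change was −0.25 (SE 0.18, edgeR adjusted p = 0.700). Ccl3, at 34.6, 24.7, and 38.6 CPM with 3′SL, and Ccl6 were lower than with PBS within every set, as were 25.5% of genes.

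The other chemokine genes did not keep 1 direction across library sets with 3′SL alone. Ccl9 was at 785, 782, and 1013 CPM, or 103%, 106%, and 93.1% of PBS within sets, with a log2 fold change of −0.01 and a 95% interval from −0.44 to 0.43. Ccl2 was at 113, 41.7, and 44.7 CPM and Ccl7 at 65.5, 17.4, and 31.6 CPM, which in set 3 was 38.2% and 34.6% of PBS and in set 1 107% and 110%. Ccl12 ran from 3.62 to 11.4 CPM, Ccl4 from 20.6 to 28.2 CPM, Ccl5 from 3.10 to 12.5 CPM, and Ccl22 from 0.409 to 1.15 CPM, all overlapping with PBS. The 95% intervals reached from −1.68 to 0.48 for Ccl7 and from −0.87 to 1.87 for Ccl5 on the log2 scale.

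The interaction of LPS and 3′SL asks whether the LPS response itself differed with 3′SL. No chemokine gene was called for it by edgeR (0% of genes), by edgeR with the block (1.55% of genes), or by DESeq2 (0.308% of genes). At an unadjusted p under 0.05 with 1.5-fold, 1 chemokine gene was lower (Ccl3), against 2.54% of genes. The log2 difference between the responses was −0.83 for Ccl3 (SE 0.35, edgeR adjusted p = 0.811), and it was −1.21, −0.91, and −0.47 in sets 1, 2, and 3. Ccl5 had −1.34 (SE 0.85, edgeR adjusted p = 0.854), Ccl9 −0.44 (SE 0.28, edgeR adjusted p = 0.854), and Ccl22 0.32 (SE 0.64, edgeR adjusted p = 0.974). With the block the edgeR adjusted p was 0.0843 for Ccl3, 0.0579 for Ccl5, and 0.0675 for Ccl9. Leaving out set 1 or set 2, the fit with the block called 0 chemokine genes lower (0.00704% and 0% of genes). Leaving out set 3, which had the smallest interaction of Ccl3, it called 2 (Ccl3 and Ccl5, against 2.13% of genes).

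Other genes of the chemokine system responded to LPS in part, and over all genes tested 18.3% were called higher and 20.2% lower. Some of the called receptors and CXC ligands had few reads with PBS and passed the filter only through libraries with LPS. Of 11 other CC ligands, 5 passed the filter on low counts and 2 of these were called higher with LPS, of which Ccl8, named monocyte chemoattractant protein 2, rose from 3.96 ± 2.21 to 47.1 ± 16.0 CPM (SD, n = 3). Of 15 CC and atypical receptors, 8 were tested, 3 were called higher and 1 lower. Ccrl2, an atypical receptor that binds chemerin, rose from 5.99 ± 1.30 CPM to 367 ± 49.2 CPM, and Ccr1, the receptor of Ccl3, Ccl6, and Ccl9, from 156 ± 56.9 CPM to 352 ± 202 CPM. Of 14 CXC ligands, 11 were tested, 7 were called higher and 1 lower, and their median log2 fold change was 5.07. Between LPS with 3′SL and LPS, edgeR without the block called none of the 5 other CC ligands, 8 receptors, and 11 CXC ligands tested. An unadjusted p under 0.05 at any fold was found for 0, 1, and 2 of them. The fit with the block called 0, 1 (Ccrl2), and 1 (Cxcl3) lower, against 0.762% of genes. DESeq2 called 0, 1 (Ccrl2), and 0 lower, against 0.462% of genes.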

How the data were processed

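RNA-Seq libraries of BMDMs were analysed, 12 in all and 3 for each of PBS, 3′SL, LPS, and LPS with 3′SL, as the labels assign them. For every library the authors deposited a table of unnormalized whole-number read counts by gene. The submitters' processing notes name FastQC, Trimmomatic, STAR, HTSeq, and DESeq2, with no versions. The genome build and the strand setting of the counting are not given in the sources used here, while the labels describe a stranded library kit. Symbols and positions were taken from GENCODE M21 (GRCm38) by identifier, which named 42462 of 43626 genes. Reads counted on no gene were left out of library sizes.

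Counts were analysed with edgeR 4.0.16 in R 4.3.3. Genes were filtered by filterByExpr, scaled by TMM factors (0.700 to 1.30), and fitted over all libraries with 1 mean per condition. Benjamini-Hochberg adjustment was made over 14308 genes, and calls required at least 1.5-fold and an adjusted p below 0.05. Levels are CPM of TMM-scaled library sizes. The scripts were tested on simulated data. Replicate libraries differed by more than sampling noise (chi-square per gene of at least 14.5).

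The library sets were found in the residuals and in the running numbers of the labels. Residuals correlated at 0.45 or more in every pair within a set, in part by construction, because the sets were made from them. The block for library set is given wherever it changed a call. The biological coefficient of variation was 0.310 without and 0.133 with the block. The chemokine genes and the lists were chosen with earlier results of these data known. Named from the other CC ligands and the receptors were genes called with LPS and at 10 CPM or more in a condition, at most 6 per list. The CXC ligands were given by counts only, except Cxcl3, which was named after its values were seen. Alternatives were DESeq2 1.42.0, its size factors, total counts, other filters, the library set block, no fold minimum, and each library left out in turn. Leaving out a set, the block with total counts, and unadjusted p-values were added after seeing the data.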

Additional observations from a re-analysis of the deposited data

How the results depend on the processing

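All calls between LPS and PBS and between LPS with 3′SL and 3′SL held in every alternative that tested the gene. Ccl17 was not tested when at least 10 counts were asked of every library. With total counts the fitted rises from PBS to LPS were smaller. They were then 3.80-fold for Ccl9 and 210-fold for Ccl5, against 6.01-fold and 336-fold with TMM factors. For Ccl6, total counts turned the log2 fold change to −0.46 for LPS against PBS (also −0.46 with the block) and to −0.41 for LPS with 3′SL against 3′SL (−0.42 with the block), and leaving out 1 library gave −0.062 to 0.18 in the latter. Chemokine genes called lower in LPS with 3′SL than in LPS numbered 0 in edgeR, in every fit without 1 library, and without library set 1 or 2, 1 at an unadjusted p, with DESeq2, without library set 3, and in the block with total counts, 2 with the block, 0 with the block without set 1 or set 2, and 3 with the block without set 3. For the interaction the counts were 1 at an unadjusted p, 2 with the block without set 3, and 0 with the block without set 1 or set 2. The block for library set changed no other call of a chemokine gene. With TMM-scaled library sizes the summed shares were 0.206% (PBS), 0.184% (3′SL), 1.48% (LPS), and 1.03% (LPS with 3′SL).

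For 3′SL against PBS, the log2 fold change turned to 0.0066 for Ccl2 without set 3, to 0.094 for Ccl4 without set 3 (0.092 with the block), to 0.38 for Ccl12 without set 3 (0.36 with the block), and for Ccl9 to 0.0023 with DESeq2 and its size factors, 0.0051 with the block, and 0.044 without set 3 (0.044 with the block). Leaving out 1 library gave −0.60 to 0.20 for Ccl4, −0.30 to 1.16 for Ccl5, −0.18 to 0.20 for Ccl9, −0.65 to 0.59 for Ccl12, and −0.77 to 0.54 for Ccl22, of which all the highest values came without PBS replicate 3. For Ccl22 the range was −0.097 to 0.34 for LPS with 3′SL against LPS and −0.38 to 0.93 for the interaction. The cause of these changes was not tested. Depth limits Ccl17, which had at most 68 reads.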
